A study of Mus musculus with 16 samples.

Results

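The transcriptome described here is that of the control library of a study of pre-B cells, which are the bone marrow precursors that have assembled an immunoglobulin heavy chain but not yet a light chain. Its members are the 4 of 16 samples whose time label reads control. These 4 samples are lanes of sequencing with 1 index, so their counts were summed to 1 library and the lanes show technical spread only. The cells came from mice of genotype Blnk-/- KO and carried a BLNK-ERt2 construct, introduced with a retrovirus and labelled as overexpression of BLNK_ERt2. The remaining 12 samples are the same cells after stimulation for 0.5, 1.5 or 5 hours, and none of them enters any value below. Whether the control cells received a solvent, how many animals or clones gave rise to the culture, the age of the animals and which growth factors were in the medium are not stated. With 1 library there is no biological replicate, so no test was made, and every interval covers counting error only.

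A pre-B cell displays its heavy chain, IgM, together with a surrogate light chain made of the VpreB and lambda-5 proteins and with the signalling chains Ig-alpha and Ig-beta. This pre-B cell receptor, with the interleukin-7 receptor, controls the proliferation of the cells and their passage to light chain recombination. The adaptor BLNK links the receptor to phospholipase C and calcium signalling, and the ERt2 domain places a fused protein under control of tamoxifen.

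Levels are given in RPKM, which here are total exon reads per kilobase of the exon length in the table and per 1000000 total exon reads of the library. The library held 34533362 total exon reads, between 8561907 and 8709054 per lane. Of 38918 features in the table, 16729 had at least 1 exon read and 10871 reached 1 CPM (1 exon read per 1000000). Between lanes, chi-square over its degrees of freedom was 1.01 for unique exon reads, within sampling noise, and 1.32 for total exon reads, above it. The 3 reads that a count of 0 allows correspond to 0.0869 CPM in the library. In a bulk sample, fewer cells that express a gene and less RNA of it per cell cannot be told apart.

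Blnk (chromosome 19, 40928927 to 40994535, mm10), the gene targeted in these mice, had 583, 589, 589 and 586 RPKM in the 4 lanes. Its level in the library was 587 RPKM, rank 68 of 28384 features with an exon length. The exon counts do not separate RNA of the retroviral construct from RNA of the targeted locus, so this value does not test the deletion. Of the gene reads of Blnk, 5.77% lay outside its exons (5.65 to 5.90%). At its intron-exon borders 444 reads crossed, against 64460 that crossed exon junctions. The source of these reads was not tested.

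The 7 markers, which are genes of early B cells, were all detected. They reached 32.7 RPKM or more, whereas 35.9% of the 28384 features with an exon length reached 1 RPKM and the median of those that did was 11.8 RPKM. These markers were chosen with earlier results of these data known, so their detection is not an independent check of the label. Some other genes of the pro-B stage, given below, were under 1 RPKM. Of the 7 pre-B receptor chains, all reached 100 RPKM, a level reached by 497 features. The list had a median of 1224 RPKM, and its summed level lay between 9326 and 9387 RPKM in the lanes.

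Ighm (chromosome 12, 113418950 to 113422730), the constant region of the mu heavy chain, had 4020, 4054, 4037 and 4031 RPKM in the lanes. It ranked 8 by level, and only 7 features stood above it. These were 6 mitochondrial genes and Eef1a1, the translation elongation factor. Cd79a (chromosome 7, 24897381 to 24902197), which encodes Ig-alpha, had 1223, 1233, 1205 and 1235 RPKM in the lanes and ranked 29. Cd79b (chromosome 11, 106311341 to 106314762), which encodes its partner Ig-beta, had 260, 269, 276 and 265 RPKM. The 2 partners thus differed in level by far more than the lanes did. Vpreb3 (chromosome 10, 75943057 to 75949657), a relative of the surrogate light chain genes, stood close to Cd79b, at 240, 227, 242 and 238 RPKM. The lane ranges of Cd79b and Vpreb3 did not overlap on these exon lengths. Per kilobase of the longest coding transcript their order turned over, with Vpreb3 at 279 and Cd79b at 268 CPM.

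The surrogate light chain genes lie on chromosome 16. Vpreb1 (16868402 to 16870843) had 1379, 1402, 1381 and 1412 RPKM in the lanes. Vpreb2 (17980565 to 17981080), its near copy, had 1494, 1487, 1484 and 1457 RPKM. Igll1 (16860671 to 16863985), which encodes lambda-5, had 711, 714, 712 and 710 RPKM. The order Vpreb2, Vpreb1, Igll1 was the same in all 4 lanes.

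That order depended on the length used and, as given further on, on the reads counted. The table gives Igll1 an exon length of 2164 bases, whereas its longest protein-coding transcript in GENCODE vM21 has 870 bases, and per kilobase of that transcript Igll1 stood at 1770 CPM. By the same measure Vpreb1 stood at 2025 and Vpreb2 at 837 CPM per kilobase. The table's length of Vpreb2, 429 bases, equals its coding sequence alone, against 759 bases of transcript. With transcript lengths the order was Vpreb1, Igll1, Vpreb2, and Igll1 stood above Cd79a, at 1770 against 1224 CPM per kilobase. Ighm remained highest of the 7 chains, at 3532 CPM per kilobase of its transcript.

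**Figure D1:**
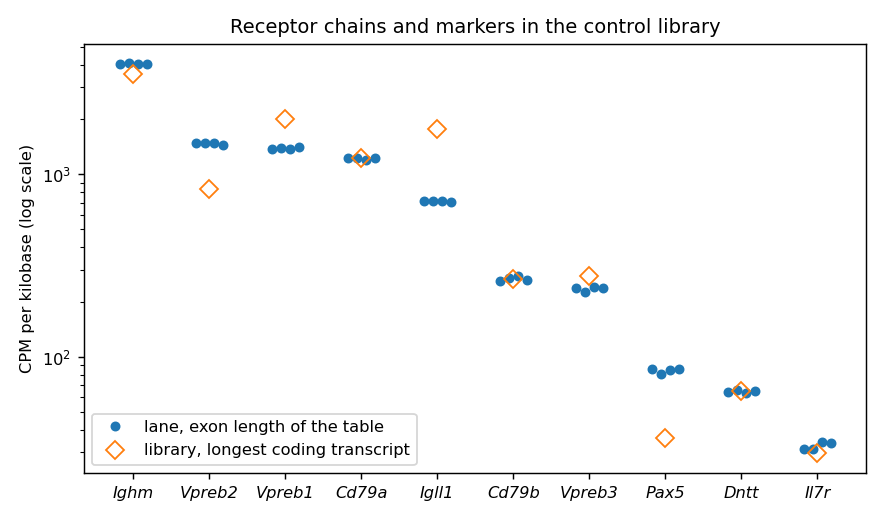
Levels of the 7 receptor chains and of Pax5, Dntt and Il7r in the control library, on a log axis in CPM per kilobase. Filled points are the 4 lanes with the exon length of the table, and open diamonds are the library with the longest coding transcript. Lanes lie close together for every gene, while the change of length moves Igll1 from 712 to 1770 and Vpreb2 from 1480 to 837.

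Vpreb1 and Vpreb2 also shared reads. Of the exon reads of Vpreb1, 74.1% were uniquely placed (95% exact Clopper-Pearson interval 73.7 to 74.5%), and of those of Vpreb2, 52.3% were (51.6 to 53.0%). Igll1, Ighm, Cd79a, Cd79b and Vpreb3 had 100% unique reads at the digits given. The coding sequences of Vpreb1 and Vpreb2 were identical at 420 of 429 bases, or 97.9%, and the longest identical stretch was 196 bases. The following 150 bases of each coding sequence, from position 238 to 387 counted from the start codon, are shown because they hold 6 of the 9 differences, the coding positions at which the genes can be told apart. Capitals mark the differing bases, and both sequences are read 5′ to 3′ from GENCODE vM21 transcripts on GRCm38, the assembly also called mm10.
Vpreb1: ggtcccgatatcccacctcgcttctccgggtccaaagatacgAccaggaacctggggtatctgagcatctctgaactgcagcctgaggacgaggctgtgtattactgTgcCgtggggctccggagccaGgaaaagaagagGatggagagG
Vpreb2: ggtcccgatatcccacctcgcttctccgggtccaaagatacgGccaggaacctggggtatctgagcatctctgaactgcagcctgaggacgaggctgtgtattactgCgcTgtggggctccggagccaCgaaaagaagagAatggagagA
The separate levels of Vpreb1 and Vpreb2 are therefore uncertain, since no source used here says how the counting divided shared reads. Counted by unique exon reads, scaled to the unique exon reads of the library and per kilobase, Vpreb1 stood at 1228 and Vpreb2 at 921 on the table's lengths, so that their order turned over.

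Igll1 is also a textbook target of the early B cell factor EBF1 and of E proteins, so its promoter was searched with those of Cd79a and Vpreb1. The motifs were CCCNNGGG, a core letter pattern of EBF1 sites, CANNTG, the E box, and TATAAA, each on both strands of the 250 bases before the RefSeq start. Igll1 held CCCNNGGG 1 time and CANNTG 3 times. Over all 32851 mouse promoters of that length, 11.8% held CCCNNGGG, 66.2% held CANNTG and 12.4% held TATAAA. CCCNNGGG was not among the letters of the Cd79a and Vpreb1 windows, which held CANNTG 2 times and 1 time, and TATAAA was in none of the 3. The Igll1 window (chr16:16863986-16864235, minus strand, GRCm38.p6) is shown with the matches of both motifs in capitals.
Igll1 promoter: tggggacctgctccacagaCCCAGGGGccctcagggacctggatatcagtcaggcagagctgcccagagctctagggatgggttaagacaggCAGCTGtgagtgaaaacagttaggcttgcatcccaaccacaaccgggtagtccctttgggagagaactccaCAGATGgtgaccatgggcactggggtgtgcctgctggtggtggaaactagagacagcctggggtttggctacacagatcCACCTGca
A match of letters is a description and not a bound site. Only the exact patterns were searched, so the lack of a match in Cd79a and Vpreb1 does not show that EBF1 sites are missing there.

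Mitochondrial, translation factor and ribosomal protein genes made up 16 of the 20 highest features. By level, mt-Co2, a subunit of cytochrome c oxidase, ranked 1 with 8065 RPKM, and mt-Co1 ranked 2 with 5326 RPKM. Eef1a1 had 4791 RPKM, Ptma, which encodes prothymosin alpha, had 3479 RPKM, and the elongation factor gene Eef2 had 1962 RPKM. The 20 highest features also held Hsp90ab1, a cytosolic chaperone, at 1529 RPKM, Cfl1, the actin-severing protein cofilin, at 1521 RPKM, and 7 ribosomal protein genes led by Rpl32 at 2292 RPKM. Ighm was the one lineage-restricted gene among them. The 13 mitochondrial protein-coding genes took 3.50% of exon reads (3.49 to 3.50%), and 88 ribosomal protein genes took 5.84% (5.83 to 5.84%). The 10 genes with most reads held 5.84% of exon reads, the first 100 held 19.0% and the first 1000 held 51.2%.

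**Figure D2:**
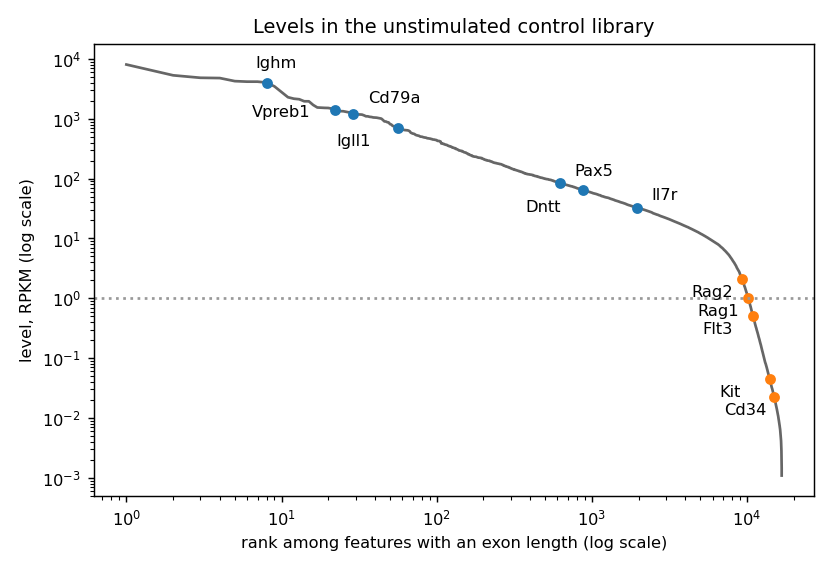
Level in RPKM against rank for every feature with an exon length and at least 1 exon read, both on log axes. Blue points are the 7 markers, from Ighm at rank 8 to Il7r at rank 1957, orange points are Rag2, Rag1, Flt3, Kit and Cd34, and the dotted line is 1 RPKM.

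Among receptor signalling genes, all 20 reached 1 RPKM and 18 reached 10 RPKM, with a median of 40.9 RPKM. Of all features with an exon length, 35.9% reached 1 RPKM, and the median of those was 11.8 RPKM. The share of all features at 10 RPKM was not counted, here or for the lists below. Among the higher members after Blnk were Pik3cd, the leukocyte PI3 kinase catalytic subunit, at 221 RPKM, and Plcg2, the phospholipase that BLNK recruits, at 97.7 RPKM. The tyrosine kinases of the pathway were lower than Plcg2 in each case. Btk had 88.6 RPKM, Syk 42.2 RPKM, Blk 32.3 RPKM and Lyn 28.8 RPKM. The lowest of the list was Cd22, an inhibitory co-receptor, at 5.29 RPKM from 788 reads.

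All 25 transcription factors of the B lineage list reached 1 RPKM, against 35.9% of all features. Of the 25, 21 reached 10 RPKM, and the median was 27.5 RPKM. Pou2af1, a co-activator of octamer-binding factors, led at 224 RPKM, with 221 to 225 RPKM in the lanes. Tcf3, which encodes the E proteins E12 and E47, followed at 164 RPKM, with 162 to 167 RPKM in the lanes. These were the 2 highest, and their lane ranges did not overlap. Sox4 and Myb, both regulators of early lymphoid precursors, stood at 131 and 127 RPKM. Only 42.7% of the Sox4 reads (42.0 to 43.4%) and 66.2% of the Myb reads (65.5 to 67.0%) were unique, which the order of these genes does not take into account. Erg, an ETS factor of early progenitors, had 91.9 RPKM.

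Pax5 (chromosome 4, 44531145 to 44711446), the factor that commits cells to the B lineage, had 86.4, 81.1, 85.0 and 85.8 RPKM in the lanes. The exon length of Pax5 in the table is 3424 bases, while its longest coding transcript has 8004 bases, and per kilobase of that transcript Pax5 stood at 36.2 CPM. Ikzf1, which encodes Ikaros, had 81.2 RPKM, Ets1 had 47.4 RPKM, Lef1, a mediator of Wnt signalling, had 44.3 RPKM and Ebf1 had 42.2 RPKM. These 4 factors and Pax5 lay within the upper part of the list. A middle group held Foxo1, which activates the recombinase genes, at 30.7 RPKM, Irf4, which acts at light chain enhancers, at 30.2 RPKM, and the related ETS factors Spi1 and Spib at 27.5 and 22.5 RPKM. Runx1 had 27.5 RPKM, Foxp1 21.3 RPKM, Bach2, a repressor of plasma cell fate, 20.9 RPKM and Mef2c 17.2 RPKM. Gfi1, a transcriptional repressor, had 15.3 RPKM, the E protein gene Tcf12 14.5 RPKM and Ikzf3, which encodes Aiolos, 13.1 RPKM. At the low end, Bcl11a had 9.47 RPKM with 30.1% unique reads (28.8 to 31.5%), Irf8 had 5.75 RPKM, Pou2f2, which encodes Oct-2, had 4.61 RPKM and Id3, an inhibitor of E proteins, had 2.17 RPKM. Of the 1402 exon reads of Irf8, 1294 crossed exon junctions, and its span overlaps that of Gm20388, a predicted gene with 4216 exon reads. How reads of this overlap were divided was not tested, so the low place of Irf8 is uncertain. The list thus spanned 2.17 to 224 RPKM.

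Genes of the pro-B stage, which precedes the pre-B stage, did not form 1 group. Of 14, 10 reached 1 RPKM, against 35.9% of all features. Besides Vpreb1 and Igll1, the higher members were Cd93 (70.7 RPKM), a surface marker of early B cells, Spn (69.9 RPKM), which encodes CD43, Cecr2 (69.7 RPKM), a bromodomain protein, and Dntt (64.8 RPKM). Dntt (chromosome 19, 41029275 to 41059523) encodes the polymerase that inserts untemplated bases where heavy chain segments join, and it had 64.3, 65.8, 63.7 and 65.4 RPKM in the lanes. Il7r (chromosome 15, 9506161 to 9529876), the alpha chain of the interleukin-7 receptor, had 31.4, 31.2, 34.2 and 33.9 RPKM. Bst1, a surface ADP-ribosyl cyclase, had 13.4 RPKM. The other 6 members were at or under 2.12 RPKM. Ly6d had 0.629 RPKM from 15 reads and the cytokine receptor gene Flt3 had 0.504 RPKM from 135 reads. Kit, the stem cell factor receptor, had 2, 1, 3 and 3 reads in the lanes, and the progenitor marker Cd34 had 2 reads in the library. Kit and Cd34 were thus near the counting limit in a library where Cd93 had 16298 reads.

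Rag1 and Rag2, the recombinase genes, were the lowest members of a list of 13 recombination and end-joining genes. All 13 reached 1 RPKM, against 35.9% of all features. Rag1 (chromosome 2, 101638282 to 101649501) had 62, 55, 39 and 73 reads in the lanes, or 1.0 RPKM in the library. Rag2 (chromosome 2, 101624718 to 101632529) had 61, 86, 58 and 46 reads, or 2.12 RPKM. Only 7.42% of the Rag1 reads (4.38 to 11.6%) and 20.7% of the Rag2 reads (15.9 to 26.3%) were unique, and a RIKEN feature with 276 exon reads, B230118H07Rik, overlaps both in the table. Most of these reads therefore cannot be assigned to the recombinase with certainty. The end-joining genes were higher, with the Ku subunit genes Xrcc6 and Xrcc5 at 27.9 and 21.1 RPKM and the kinase gene Prkdc at 9.60 RPKM. Atm, the damage-signalling kinase, had 9.53 RPKM, and the ligase gene Lig4 had 7.55 RPKM. Xrcc4, the partner of that ligase, had 3.93 RPKM, Dclre1c, which encodes the hairpin opener Artemis, had 3.82 RPKM and Nhej1 had 3.19 RPKM. Hmgb2 and Hmgb1, DNA-bending cofactors of the recombinase that have many other roles, stood at 313 and 37.1 RPKM.

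Heavy chain variable segments were dominated by 1 family. The 114 Ighv segments held 27194 exon reads, of which 92.7% fell in the 9 segments of the Ighv5 family. Among unique reads the share was 86.5%. Ighv5-12 had 7884 reads (647 RPKM), Ighv5-6 had 6321 reads (519 RPKM) and Ighv5-9-1 had 5347 reads (442 RPKM), together 71.9% of Ighv reads. Their unique shares were 58.5% (57.4 to 59.6%), 35.5% (34.4 to 36.7%) and 33.7% (32.5 to 35.0%). Each of these 3 shared between 15.4 and 19.1% of its 50-base words with other segments or genes, so the table does not say how many different segments the cells used.

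Light chain RNA was low beside heavy chain RNA. Igkc, the kappa constant region, had 390 reads and 35.0 RPKM, so the level of Ighm in RPKM was 115 times that of Igkc. The 104 Igkv segments held 607 reads, led by Igkv14-111 with 277 reads (22.7 RPKM), Igkv9-124 with 82 and Igkv1-135 with 45 reads. The 3 Iglv segments held 57 reads, of which Iglv3 had 48, Iglv1 had 9 and Iglv2 had 0. Iglc2, a lambda constant region, had 29 reads.

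Of 20 measured genes in a list named for later B cells, 8 reached 1 RPKM, a share near the 35.9% of all features. The median was 0.395 RPKM. The list was not limited to genes that start after the pre-B stage, so a detected member is not a sign of a later stage. The 4 highest were Cd37, a tetraspanin, at 84.9 RPKM, Igkc, Cd72, an inhibitory surface protein, at 26.1 RPKM, and Il2ra, which encodes CD25, at 23.2 RPKM. Ms4a1, which encodes CD20, Cd83, Cd86 and the MHC class II gene H2-Eb1 had 0 reads. A count of 0 allows up to 0.0422 RPKM for Ms4a1 and 0.0237 RPKM for Cd86. Of 8 plasma cell genes, 5 reached 1 RPKM, against 35.9% of all features. They were led by Mzb1, an endoplasmic reticulum protein of B cells, at 350 RPKM. Tnfrsf13b, the receptor TACI, had 41.4 RPKM, Ell2, an elongation factor, had 40.6 RPKM and Sdc1, which encodes CD138, had 15.4 RPKM. Prdm1, the regulator of plasma cell fate, had 5 reads.

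In the interleukin-7 and STAT5 list, 16 of 17 genes reached 1 RPKM, against 35.9% of all features. Pim1, a survival kinase gene, had 116 RPKM, Mcl1, which encodes a death antagonist, had 59.1 RPKM, Jak1 had 50.8 RPKM and Il2rg, the common cytokine receptor chain, had 36.8 RPKM with 5.04% unique reads (4.29 to 5.88%). Il7 itself, the cytokine, had 0 reads. Of 14 homing and surface genes, 12 reached 1 RPKM, against 35.9% of all features. Cxcr4, the receptor for the chemokine CXCL12, stood at 143 RPKM among them. Cd24a, a surface antigen of early B cells, led that list with 172 RPKM, followed after Cxcr4 by Cd53 at 89.8 and Cd81 at 75.1 RPKM.

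Genes of DNA replication and division were detected throughout. All 25 S phase genes reached 1 RPKM with a median of 49.6 RPKM, against 35.9% of all features at that level. All 25 G2 and mitosis genes reached 1 RPKM too, with a median of 44.4 RPKM. Each of them also reached 10 RPKM, a level for which the share of all features was not counted. Pcna, the sliding clamp of replication, had 212 RPKM, and Mcm3, a subunit of the replicative helicase, had 130 RPKM. Mki67 had 124 RPKM, Ccnb2, a mitotic cyclin, 110 RPKM, Top2a, which untangles chromosomes, 107 RPKM, and Cdc20, an activator of the anaphase-promoting complex, 95.9 RPKM. In the G1 list, 19 of 20 reached 1 RPKM, against 35.9% of all features. It was led by Cdk4 at 112, Ccnd3, the D cyclin of pre-B cells, at 111 and Myc at 108 RPKM. The p21 gene Cdkn1a had 1.08 RPKM, and Ccnd1, the member under 1 RPKM, had 0.294 RPKM. Glycolysis genes had a median of 167 RPKM, and the highest were Pkm (pyruvate kinase) at 1174 and Ldha (lactate dehydrogenase) at 762 RPKM.

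Immediate early genes, which cells induce within minutes of a signal, had a median of 1.31 RPKM. Of 20, 11 reached 1 RPKM, against 35.9% of all features. Btg2, an anti-proliferative gene, had 71.8 RPKM, Jund 36.0 RPKM, Zfp36, which encodes an mRNA decay factor, 26.5 RPKM and Ier2 21.2 RPKM. The classical members Egr1 and Fos had 61 and 31 reads, or 0.394 and 0.382 RPKM. The list thus held both genes near the level of Pax5 and genes near the counting limit.

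**Figure D3:**
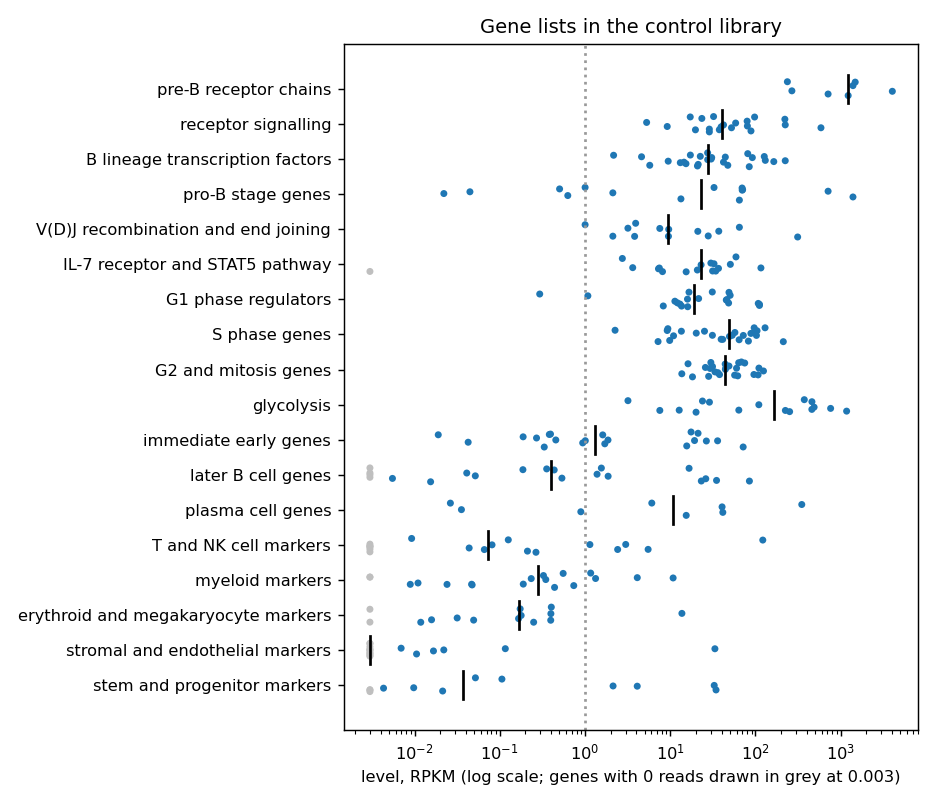
Level of each measured member of 18 gene lists, in RPKM on a log axis. Points are genes, black bars are list medians and grey points are genes with 0 reads drawn at 0.003. The dotted line is 1 RPKM, which 35.9% of all features with an exon length reached. The receptor chains lie highest, with a median of 1224 RPKM, and the lists of other cell types mostly lie under 1 RPKM.

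Markers of other blood and stromal cells were mostly under 1 RPKM. Of 66 measured, 11 reached 1 RPKM, while 17 reached 1 TPM and 5 reached 5 RPKM. Most features were under that level too, since 35.9% of all 28384 features with an exon length reached 1 RPKM. In the T and NK cell list 5 of 18 reached 1 RPKM, and its summed level of 135 RPKM (130 to 138 RPKM in the lanes) was mostly Lat, an adaptor of receptor signalling, at 122 RPKM. Klrb1c had 5.51 RPKM, Klrd1 3.01 RPKM and Zap70 2.42 RPKM, while Cd3e, Cd4, Cd8b1, Ncr1, Gzma and Gzmb had 0 reads. In the myeloid list 4 of 18 reached 1 RPKM, with Itgam at 10.8, Tyrobp at 4.11, Itgax at 1.33 and Lyz2 at 1.17 RPKM. Its summed level was 20.4 RPKM (18.7 to 21.6 RPKM in the lanes), and Cd14 and Ly6g had 0 reads.

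In the erythroid and megakaryocyte list 1 of 14 reached 1 RPKM, the globin gene Hbb-bt at 13.7 RPKM with 24.9% unique reads (20.4 to 29.9%). Its summed level was 15.8 RPKM (14.9 to 16.7 RPKM in the lanes), and Alas2 and Ppbp had 0 reads. In the stromal and endothelial list 1 of 16 reached 1 RPKM, the adhesion molecule gene Pecam1 at 33.4 RPKM, which B cells also express. The collagen genes Col1a2 and Col3a1, Cxcl12, Pdgfra, Kdr and 5 more had 0 reads, and the summed level was 33.6 RPKM (32.6 to 34.4 RPKM in the lanes). Of 12 stem and progenitor markers, 4 reached 1 RPKM, a share near the 35.9% of all features. They were Lmo2 at 34.5 RPKM with 14.3% unique reads (12.9 to 15.7%), Cd48 at 32.8, Slamf1 at 4.10 and Tal1 at 2.14 RPKM. Procr, Hoxa9 and Mecom had 0 reads.

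The share of uniquely placed exon reads was 84.0% in the library and 84.0 to 84.1% in the lanes, and it differed between genes from 0 to 100%. Of the 497 features at or above 100 RPKM, 248 had over 95% unique reads and 58 had under 10%. Ribosomal protein genes as a class had 35.6% unique reads (35.5 to 35.6%), and 35 of the 83 that had reads were under 10%. The 10 lowest features at or above 100 RPKM held mt-Nd4l and Gm10222, a predicted gene whose 50-base words all occur in it, both with 0 unique reads. Further members were Rps6 with 0.227%, Rpl23a with 0.300%, Rps13 with 0.505% and the actin gene Actg1 with 0.524%.

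Sequence shared with other annotated genes went with a low unique share. For 481 of the 497 features, the share of distinct 50-base words of their GENCODE transcripts that also occur in another gene was counted, since no source used here gives the read length. The 139 features that share none had a median unique share of 100%. The 103 features that share up to 10% had a median of 98.6%, the 170 features above 10 and up to 50% had 57.9%, and the 69 features above 50% had 20.1%. Spearman's rho over the 481 features was -0.77, a description across genes of 1 library that share its depth. Single features departed from this in both directions. Xist, the RNA of X inactivation, had 2.77% unique reads (2.66 to 2.89%) at 126 RPKM with 11.8% of its words shared. Its antisense gene Tsix, with 182 exon reads, overlaps it. B2m shared 0% of its words but had 24.7% unique reads, while mt-Co3 shared 99.9% and had 100% unique reads.

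**Figure D4:**
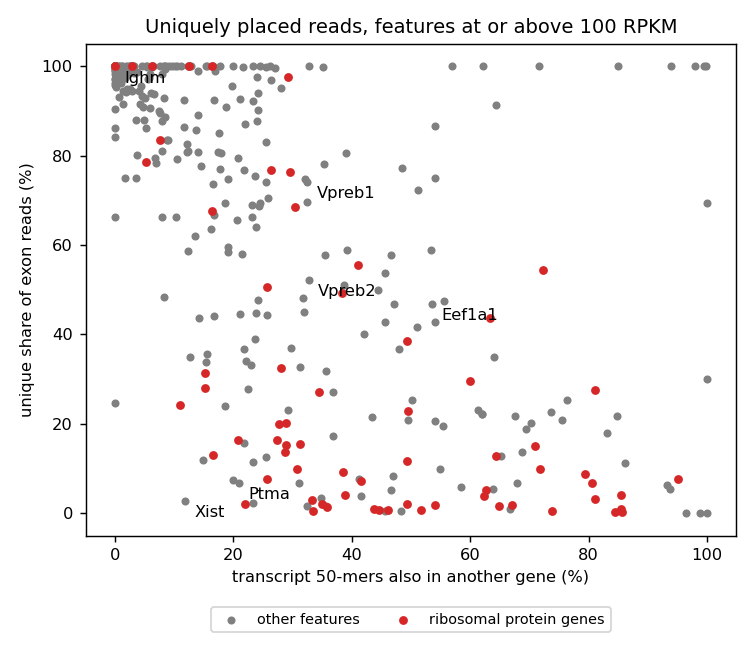
Unique share of exon reads against the share of transcript 50-base words found in another gene, both in percent, for 481 features at or above 100 RPKM. Red points are ribosomal protein genes. Vpreb1 and Vpreb2 lie at 32.5 and 32.8% of words shared, with 74.1 and 52.3% unique reads, and the unique share is mostly lower to the right.

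Of all gene reads, 15.9% lay outside annotated exons, and the value was 15.9% in each lane. Reads that cross an intron-exon border made up 3.53% of the reads that cross either a border or a junction of exons (3.52 to 3.54%). Among 6466 features with at least 1000 exon reads, the median share outside exons was 10.6%, with quartiles of 5.09 and 18.4%, and 144 features were above 50%. The share was higher in genes whose span was long relative to their exon length. In 5 bins of gene span over exon length, from short to long, the medians were 2.94, 8.46, 11.3, 14.0 and 19.1%. Spearman's rho over these features was 0.60, again a description across genes.

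In 6 of the 7 receptor chain genes the share was at most 3.38%, and Vpreb3 was the exception at 12.2%. It was 1.88% in Ighm (1.83 to 1.94%), 2.96% in Cd79a, 2.35% in Cd79b, 3.38% in Igll1 and 0.200% in Vpreb2. It was 0.0597% in Vpreb1 (0.0408 to 0.0843%), although 32.4% of its border and junction reads (31.2 to 33.7%) crossed a border, and its span overlaps that of Top3b, a topoisomerase gene with 7218 exon reads. In Dntt the share was 23.1% (22.1 to 24.2%), and in Il7r it was 20.6% (19.4 to 21.8%). The 25 transcription factors had a median of 13.1% and ranged widely, with Sox4 at 0%, Id3 at 0.741% and Irf8 at 0.989% at the low end. The Irf8 value carries the limit given above for its overlap with Gm20388. Pax5 had 59.6% of its gene reads outside exons (58.9 to 60.2%), the highest of the 25 transcription factors. The value was the same in unique reads, at 59.7%. The part that its longer annotated transcript has in this share was not tested.

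Unique reads changed the value for some factors and not for others. Tcf12 had 48.8% of all gene reads outside exons but 10.8% of unique reads. Pou2f2 had 53.0 and 49.6%, Runx1 36.8 and 37.1%, Erg 33.7 and 33.4%, and Ikzf3 30.5 and 30.4%. Tcf12 was thus the one of these 5 whose share was mostly made of reads with several possible places.

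**Figure D5:**
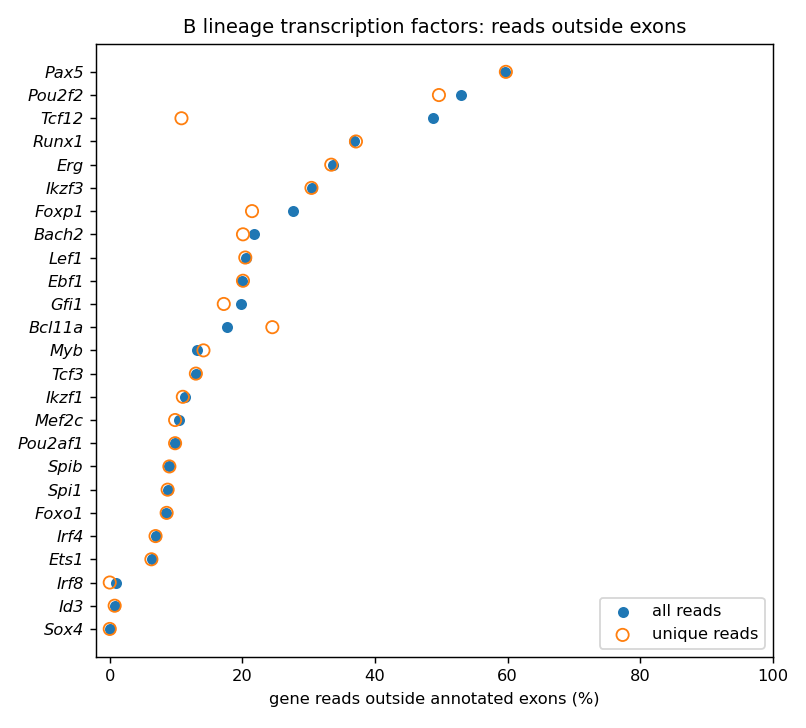
Share of gene reads outside annotated exons, in percent, for the 25 B lineage transcription factors. Filled points are all reads and open circles are unique reads. Pax5 lies highest at 59.6%, and the circles fall far from the points for Tcf12, at 10.8 against 48.8%.

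The 10 features with the highest share outside exons divided in the same way. In unique reads 4 of them stayed above 80% and 6 were under 50%. Coro2a, which encodes a coronin, had 91.6% in all and 91.7% in unique reads, and 1466 reads crossed its intron-exon borders against 22 that crossed exon junctions. AU020206, a non-coding transcript, had 89.7 and 89.5%. Gm8995 had 88.3 and 83.7%. Gm20388 had 98.6%, but it spans other genes with 43782 exon reads and had 0 unique exon reads. Zranb3, Wdr70, Snx6, Tmcc1, Cenph and Uso1 had 87.1 to 92.9% in all reads and 16.0 to 41.0% in unique reads.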

How the data were processed

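Per the labels' protocols, RNA was isolated by PeqGOLD TriFast, poly(A) RNA was enriched, libraries were built with either a TruSeq or a NEBNext kit, without saying which, and an Illumina HiSeq was used. The submitters' processing notes name CASAVA 1.8.2 and the build mm10. The sources used here do not name the aligner, the counting program, the strand setting or the read length. The deposited values are unnormalized counts for each feature and lane, per the file headers, as total and unique exon reads, total and unique gene reads, and exon-exon and intron-exon reads. The deposited RPKM columns use decimal commas and were not used, and 0 columns were left unmatched to a sample.

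Counts of the 4 control lanes were summed and scaled to CPM and, with the exon length of the table, to RPKM. The 10534 features without an exon length held 0 exon reads and 5.48% of reads outside exons. Intervals are exact Clopper-Pearson intervals at 95%. No molecular identifiers are mentioned, so reads are not counted as molecules, and intervals cover counting error only. No test was run. The members and the 23 gene lists, with 356 genes of which 351 were found, were chosen with earlier results of these data known. Named genes are the 7 markers, the 20 highest features, the 4 highest members of each list, all receptor chain, transcription factor, pro-B and recombination genes, the 10 lowest in unique share at or above 100 RPKM, the 10 highest in share outside exons with at least 1000 exon reads, and the 3 highest variable segments of each locus. Other genes, among them kinases, Cd22, Gapdh, Egr1, Fos, Cdkn1a, Ccnd1, Iglc2, Prdm1 and those at 0 reads, were named after their values were seen. One gene that the rule names is not reported here. The 50-base words were chosen after the data were seen.

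Level calculation was tested on simulated counts with known changes in features with at least 1000 exon reads. This checks the scaling only, and not shared reads or the exon lengths. Promoters came from RefSeq tables on GRCm38.p6, and transcripts from GENCODE vM21. Python 3.11.15, pandas 2.3.3, numpy 2.4.6, scipy 1.17.1, numba 0.67.0 and matplotlib 3.10.9 were used. Alternatives were unique exon or total gene reads, other floors, TPM, reads per kilobase, mitochondrial or predicted genes left out, and each lane left out.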

Additional observations from a re-analysis of the deposited data

Results flagged for a closer look

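Of 15 values looked at over the 4 lanes, 1 stood apart. The number of genes at or above 1 CPM was 10886 in lane 4, against 10901, 10903 and 10901 in the other lanes. Lane 4 was far from the others for the narrow range that they spanned, and about 1 in 20 such groups is marked by chance. Lane 4 held 8655407 exon reads, which lay within the range of the other lanes.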

How the results depend on the processing

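The share of exon reads in the 10 highest genes, 5.84%, was 5.45% in unique exon reads, 5.37% in total gene reads, 12.5% in reads per kilobase and 5.09% with mitochondrial genes left out. That in the 100 highest genes, 19.0%, was 17.7, 17.5, 34.3 and 17.1% in the same order. The unique share of 84.0% was 81.3% over gene reads. The share outside exons, 15.9%, was 13.0% in unique reads, 13.9% with predicted genes left out and, in an alternative added after the data were seen, 15.2% with features of no exon length left out. Of 66 markers of other cell types, 11 reached 1 RPKM, 5 reached 5 RPKM and 17 reached 1 TPM. Genes detected numbered 10543 to 12330 by read class and 9429 to 11581 by floor. Of 74 lineage and stage genes, 70 reached 1 RPKM as reported, and 68 and 69 did in unique exon and total gene reads. At other floors 63 reached 5 RPKM, 72 reached 0.5 RPKM and 72 reached 1 TPM. Of all features with an exon length, 35.9% reached 1 RPKM. Leaving out each lane gave 10882 to 10904 detected genes, 5.84 to 5.84% and 19.0 to 19.0% in the highest 10 and 100 genes, 84.0 to 84.1% unique, 15.9 to 15.9% outside exons, and 69 to 70 and 11 to 11 genes in the lists. The cause of each shift was not tested. No paired analysis was possible because the values come from no test and only the control is described. The deposited RPKM column and a fit with lanes as a block were not run. Depth limits genes with few reads, such as Kit and Cd34, and lanes of 1 library show no spread between cultures.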

Other observations

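Gapdh, the glycolytic enzyme gene often used as a reference, had 669 reads and 7.55 RPKM, which placed it 15 of 16 among glycolysis genes. Only the glucose transporter gene Slc2a3 was lower, at 3.19 RPKM, and higher members were Pgam1 at 488 RPKM, Aldoa at 460 RPKM and Pgk1 at 459 RPKM. The unique share was 62.5% in Gapdh, 3.76% in Pgam1, 93.8% in Aldoa and 6.76% in Pgk1, and in unique reads alone Pgam1 stood at 21.8 RPKM. GENCODE held 215 annotated pseudogenes with 50-base words of Gapdh, the most of 781 features queried. Hmgb1 came next with 130, and the highest of the other glycolysis genes was Ldha with 14. Whether reads of Gapdh were lost to its copies was not tested.

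Clustered histone genes, whose main transcripts lack a poly(A) tail, held 5729 reads or 0.0166% of exon reads (0.0162 to 0.0170%) over 70 features. Of these features 25 reached 1 RPKM, a share near the 35.9% of all features. On the Y chromosome, Ddx3y and Kdm5d had 0 reads, Eif2s3y had 1 and Uty had 5, while Xist had 77713 reads. Of the 17244 reads counted on the Y chromosome, 95.6% fell in Erdr1. Of 7 nuclear long RNAs measured, 6 reached 1 RPKM, against 35.9% of all features. In this list 3 reached 100 RPKM, as did 497 features in all. Among the 3 were Neat1 at 179 RPKM and Malat1 at 134 RPKM, while Meg3 had 0 reads. For Malat1, 76.5% of gene reads (76.1 to 76.9%) lay outside its annotated exons.

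Of 14 BCL2 family genes, which control cell death, 10 reached 1 RPKM, against 35.9% of all features. Their median was 7.02 RPKM. Bax, an effector of death, had 74.5 RPKM, Mcl1 59.1 RPKM and Bak1 21.0 RPKM, while Bik and Bcl2a1b had 0 reads. All 15 housekeeping genes reached 1 RPKM, against the same 35.9%, with a median of 189 RPKM.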
